A study of Homo sapiens with 18 samples.

Results

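The early response of HaCaT skin keratinocytes to a scratch wound was measured as the difference between cultures collected 6 h after the scratch and unscratched cultures collected at 0 h. The comparison took its members from the time and line labels alone: 3 libraries at 6 h and 3 at 0 h, 6 of the 18 libraries of the series, with 17409 genes carrying enough reads to be tested. HaCaT is a line of adult human skin keratinocytes that became immortal spontaneously in culture and carries mutant p53. The series also holds HaCaT cultures 24 h after the scratch and the same 3 times of TIGK, a line of gingival (gum) keratinocytes immortalised with telomerase, with 3 libraries in each group. Each group is 1 line grown as replicate cultures or library preparations, and no unscratched culture was kept for 6 h, so time in culture and the scratch cannot be told apart. RNA was read from whole cultures, and in such a bulk sample fewer cells using a gene and less RNA per cell cannot be told apart.

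Keratinocytes at a wound edge detach from resting epidermis, spread and migrate over a provisional matrix before they divide. Injury is known to activate EGF receptor and MAP kinase signalling within minutes, followed by transcription of immediate-early genes, many of which encode AP-1 proteins, and by secretion of proteases, protease inhibitors and laminin. Differentiation genes are commonly held back while the sheet migrates.

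The libraries held 16132589 to 16811317 counted reads at 6 h and 15781895 to 16323357 at 0 h. Between 21164 and 21590 genes had at least 1 read at 6 h and between 21611 and 21858 at 0 h, and mitochondrially encoded reads made up 7.71 to 7.82% at 6 h and 7.64 to 8.08% at 0 h. The 10 keratinocyte markers summed to 42306 to 45245 CPM, the read count scaled to library size, at 6 h and 44176 to 45214 CPM at 0 h. The sum of 8 fibroblast markers was 21.0 to 23.8 CPM at 6 h and 24.9 to 29.1 CPM at 0 h, with COL1A2 and PDGFRA at 0 reads in all 6 libraries. The 6 melanocyte markers summed to 3.67 to 4.51 CPM at 6 h and 4.68 to 5.39 CPM at 0 h (TYR at 0). The 7 immune cell markers summed to 1.28 to 1.71 CPM at 6 h and 1.37 to 2.82 CPM at 0 h (LYZ at 0). The 5 endothelial markers summed to 2.13 to 3.61 CPM at 6 h and 2.72 to 3.27 CPM at 0 h (CDH5 and KDR at 0). No tested marker of these lists was called at 6 h by edgeR over the 18 libraries. The fit to the 9 HaCaT libraries alone called the keratinocyte markers SFN higher (adjusted p = 0.011) and DSG3 lower (adjusted p = 0.001).

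At 6 h, 24 genes rose and 11 fell relative to 0 h. The genes that rose encode stress-induced transcription factors (ATF3, NR4A1, FOSL1, KLF6), inflammatory proteins (CXCL8, TNFAIP3, IL1RL1), secreted growth factors (BMP6, INHBA) and protease inhibitors (SERPINE2, TFPI2). Those that fell include the transcription factors FOXN1 and TP73, the cross-linking enzyme TGM1, the BMP inhibitor SMAD6 and the receptor FGFR3. The 35 calls were 0.201% of the genes tested (0.138% up and 0.0632% down), at a false discovery rate under 0.05 in edgeR's quasi-likelihood test over all 18 libraries. In all 35 the 3 libraries of 6 h lay wholly above or below the 3 of 0 h. Over all genes such separation occurred in 15.9% (7.97% above, 7.94% below), and an unadjusted p under 0.05 in 7.55% (3.62% up, 3.93% down). The median log2 change of all genes was 0.

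Changes were mostly modest in size. Of the genes called, 17 of the 24 that rose and 10 of the 11 that fell changed by less than 2-fold. The rest of those that rose include PMP22, HS6ST2 and ATP1B2, which had no read at 0 h, so that the size of their change is not measured. Among genes with reads at 0 h the log2 change of those that rose lay between 0.30 (CD59) and 1.29 (CXCL8), and that of those that fell between -0.39 (SREBF1) and -1.11 (WSCD2). Per gene length, FOSL1 was among the most abundant of the 35, with a mean of 151 FPKM at 6 h against 96.5 FPKM at 0 h. ATF3, TFPI2 and TNFAIP3 were among the 4 genes called in each of the 6 fits that left out 1 HaCaT library of 6 h or 0 h, and ETS1 and NR4A1 in 5 of the 6, losing the call without 0 h B. The number of calls was 8 without 6 h A, 17 without 6 h B, 13 without 6 h C, 7 without 0 h A, 4 without 0 h B and 30 without 0 h C. A fit to the 9 HaCaT libraries alone called 210 of 15500 genes (1.35%; 109 up, 0.703%, and 101 down, 0.652%), and it held 32 of the 35; it did not test PMP22, HS6ST2 or ATP1B2, which passed the filter on low counts only with the TIGK libraries included. DESeq2 over the 18 libraries called 105 of the 13385 genes it gave an adjusted p (0.784%; 66 up, 0.493%, and 39 down, 0.291%).

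**Figure D1:**
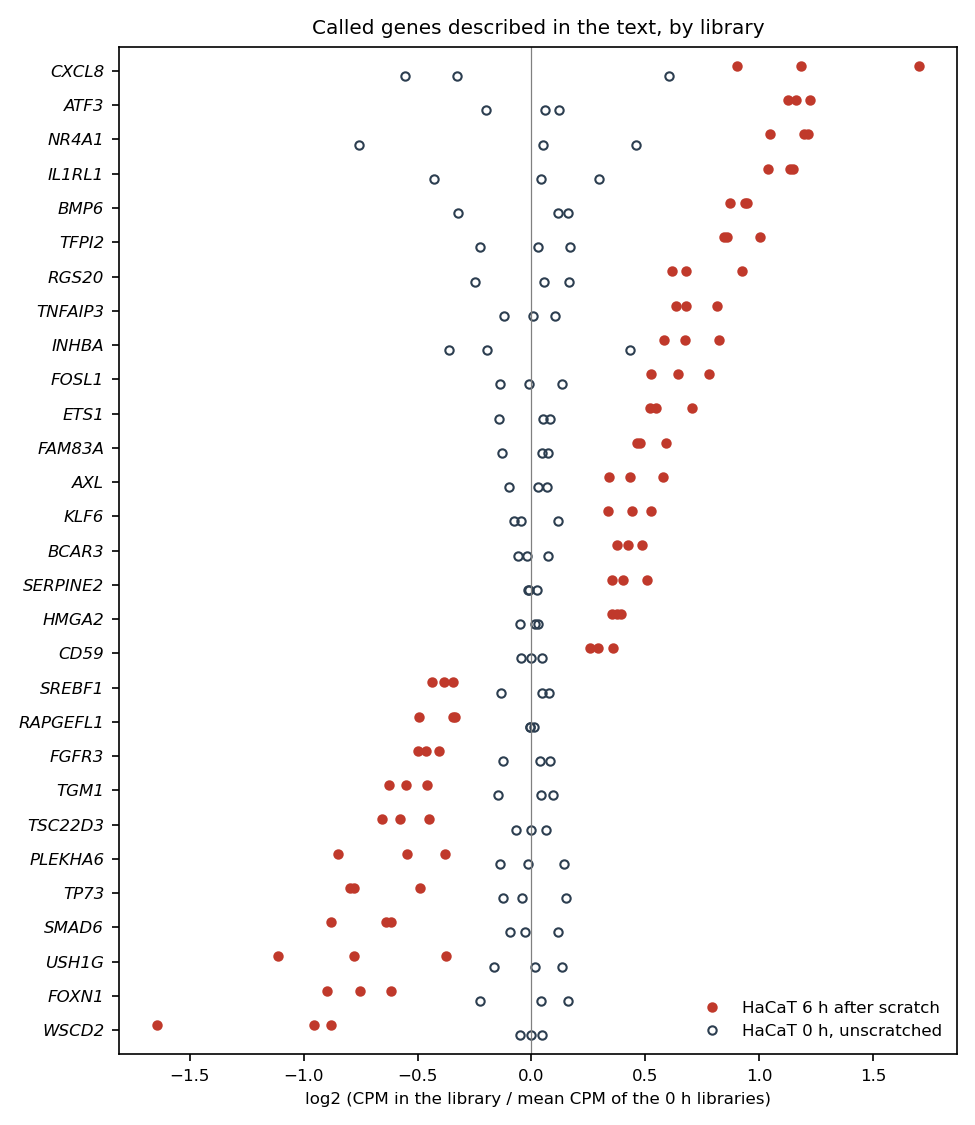
Level of each called gene described here with reads at 0 h, in every library, as log2 of its CPM over the mean CPM of the 0 h libraries; filled points are the 3 HaCaT libraries at 6 h after the scratch and open points the 3 unscratched HaCaT libraries at 0 h. In each row the filled points lie on one side of all open points. The open points of CXCL8 and NR4A1 are the most widely scattered among the genes that rose.

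Stress-induced transcription factors were a group among the genes that rose. ATF3, a bZIP factor induced by many stresses (hg38 chromosome 1, 212565334 to 212620777, plus strand), had 10.04, 9.78 and 10.5 CPM in the 6 h libraries A, B and C, against 4.68, 3.90 and 4.87 CPM in the 0 h libraries. The 6 h libraries were close together and far above those of 0 h, a log2 change of 1.17 (SE 0.17, adjusted p = 0.0016). NR4A1, an orphan nuclear receptor of the immediate-early class, had 12.8, 14.4 and 14.2 CPM at 6 h against 6.41, 3.65 and 8.48 CPM at 0 h (log2 change 1.16, SE 0.19, adjusted p = 0.0071). The 0 h libraries of NR4A1 were spread widely, with B lowest. FOSL1 (FRA1), the Fos-family partner of Jun proteins that is known for its role in migrating epithelial cells, had 318, 266 and 290 CPM at 6 h against 184, 168 and 203 CPM at 0 h (log2 change 0.65, SE 0.11, adjusted p = 0.0078). KLF6, a zinc finger factor, averaged 72.6 ± 4.72 CPM at 6 h and 53.7 ± 3.92 CPM at 0 h (SD, n = 3 each; adjusted p = 0.034). These 4 were the members called among 31 immediate-early and AP-1 genes, and none of that list was called lower. Its median log2 change was 0.25, and 13 members were higher and 2 were lower at an unadjusted p under 0.05. Of all genes tested, 3.62% were higher and 3.93% lower at that p, and 0.138% were called up and 0.0632% down. The same shares stand beside every list below. FOSL1 lost its call without 6 h A, 0 h A or 0 h B, and KLF6 kept it only without 0 h C.

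Members of the Fos and Jun families did not all move the same way in the fit to the 9 HaCaT libraries, which called 10 of the 31 higher and 3 lower. FOSB averaged 14.8 ± 0.47 CPM at 6 h and 6.77 ± 2.84 CPM at 0 h (log2 change 1.13, adjusted p = 0.0012 in that fit). FOS averaged 17.6 ± 0.47 CPM at 6 h and 10.6 ± 1.69 CPM at 0 h (0.73, adjusted p = 0.00044 in that fit). JUN, EGR1, EGR3 and TRIB1 were also called higher there. JUND, JUNB and FOSL2 were called lower there: JUND averaged 142 ± 13.1 CPM at 6 h and 195 ± 6.52 CPM at 0 h (log2 change -0.46, adjusted p = 0.00026). None of these 9 passed in the fit to all 18 libraries; the adjusted p there was 0.07 for FOSB, 0.088 for FOS and 0.70 for JUND.

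Of the genes linked to inflammation, 3 of 26 tested rose and none fell. CXCL8, the neutrophil chemokine interleukin-8, had the largest log2 change among genes with reads at 0 h, at 1.29 (SE 0.26, adjusted p = 0.034), from low levels: 6.80, 3.91 and 4.75 CPM at 6 h against 1.67, 1.42 and 3.18 CPM at 0 h. Its lowest 6 h library (B) and its highest 0 h library (C) were close to each other. TNFAIP3 (A20), the ubiquitin-editing enzyme that restrains NF-kB signalling and is itself an NF-kB target (chromosome 6, 137867188 to 137883312, plus strand), had 58.4, 60.3 and 66.2 CPM at 6 h against 37.9, 34.7 and 40.5 CPM at 0 h, a log2 change of 0.71 (SE 0.10, adjusted p = 0.0016). IL1RL1, which encodes the receptor ST2 of the interleukin-1 receptor family, had 36.8, 39.7 and 39.3 CPM at 6 h against 18.4, 13.3 and 21.96 CPM at 0 h (log2 change 1.11, SE 0.20, adjusted p = 0.013). All of its 6 h libraries stood well above its 0 h libraries. The list as a whole had a median log2 change of 0.11, with 9 members higher and 0 lower at an unadjusted p under 0.05. For all genes tested the shares at that p were 3.62% and 3.93%, and 0.138% were called up. RELB, an NF-kB subunit, averaged 36.0 ± 4.14 CPM at 6 h and 26.9 ± 1.88 CPM at 0 h (SD, n = 3 each), with an adjusted p of 0.28 over the 18 libraries. It was called higher in the fit to the 9 HaCaT libraries (adjusted p = 0.026). CXCL8 lost its call without 6 h A, 6 h C, 0 h A or 0 h B, and IL1RL1 held it only without 0 h C.

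Promoter windows of RefSeq (assembly GRCh38.p14; 250 bases before a start site and 50 from it) were matched for 25 of the 35 genes, in 49 windows, and for 11494 of the genes tested, in 16635 windows. They were searched on both strands for the AP-1 letters TGACTCA and the NF-kB letters GGACTTTCC or GGAATTTCC. The search also took in the CRE letters TGACGTCA, the EGR1 letters GCGTGGGCG, the TEAD letters GGAATG and the TATA box letters TATAAA. The windows shown are those of CXCL8 and TNFAIP3, which hold the NF-kB letters among 16 matched genes that rose. The windows of BCAR3 and CD59 with AP-1 letters nearest a start site are shown beside them. Capitals mark the AP-1 and NF-kB letters on either strand, 5′ to 3′ along each gene. TATA box letters, which the CXCL8 and BCAR3 windows also hold, are left in lower case.
CXCL8, chr4:73740319-73740618, plus strand: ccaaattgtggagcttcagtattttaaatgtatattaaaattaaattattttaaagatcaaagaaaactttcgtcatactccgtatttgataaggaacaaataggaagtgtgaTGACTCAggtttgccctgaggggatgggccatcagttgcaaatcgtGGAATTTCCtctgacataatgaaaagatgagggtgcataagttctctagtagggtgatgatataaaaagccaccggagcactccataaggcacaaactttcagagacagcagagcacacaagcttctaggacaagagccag
TNFAIP3, chr6:137867009-137867308, plus strand: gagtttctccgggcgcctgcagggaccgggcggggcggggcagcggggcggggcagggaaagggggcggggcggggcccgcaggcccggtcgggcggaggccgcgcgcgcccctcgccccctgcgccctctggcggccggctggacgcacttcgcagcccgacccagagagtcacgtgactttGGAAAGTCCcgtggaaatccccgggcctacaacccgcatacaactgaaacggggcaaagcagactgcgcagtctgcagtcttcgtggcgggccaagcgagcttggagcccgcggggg
CD59, chr11:33722678-33722977, minus strand: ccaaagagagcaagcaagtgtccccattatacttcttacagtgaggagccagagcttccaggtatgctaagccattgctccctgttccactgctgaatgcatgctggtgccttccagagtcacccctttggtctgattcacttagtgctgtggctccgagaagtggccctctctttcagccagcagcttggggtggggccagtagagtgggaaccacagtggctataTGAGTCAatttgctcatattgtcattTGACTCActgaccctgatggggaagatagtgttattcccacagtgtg
BCAR3, chr1:93845861-93846160, minus strand: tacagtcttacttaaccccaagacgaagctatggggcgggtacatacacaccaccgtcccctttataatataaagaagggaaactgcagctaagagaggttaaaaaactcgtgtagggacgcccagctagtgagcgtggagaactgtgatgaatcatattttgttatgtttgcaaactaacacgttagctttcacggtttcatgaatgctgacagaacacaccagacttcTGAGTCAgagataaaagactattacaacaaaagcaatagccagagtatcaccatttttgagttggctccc

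In the CXCL8 window the AP-1 letters began 137 bases and the NF-kB letters 91 bases before the start site. The NF-kB letters of TNFAIP3, read on the minus strand, began 67 bases before it. CD59 carried AP-1 letters 23 bases before its start site and again from base 4 after it, and BCAR3 20 bases before one start site and 56 bases before another. In all, 4 of 35 windows of genes that rose held the AP-1 letters (11.4%) and 0 of 14 windows of genes that fell, against 3.80% of all windows. BCAR3, which has the most windows of the genes that rose, supplied 2 of these 4. Counted by gene, 3 of 16 that rose held the AP-1 letters, against 592 of 11494 of all genes with a window. Among windows of genes called higher in the fit to the 9 HaCaT libraries, 16 of 132 held them (12.1%), and among those called lower 4 of 110 (3.64%). NF-kB letters were in 2 of 35 windows of genes that rose (5.71%), in 0 of 14 of genes that fell and in 0.842% of all windows. In the fit to the 9 HaCaT libraries 3 of 132 windows of genes called higher held them (2.27%) and 2 of 110 of those called lower (1.82%). CRE and EGR1 letters were in 0 of the 35 windows of genes that rose, against 2.65% and 1.23% of all windows. TEAD letters were in 8.57% of the 35 and 11.5% of all windows, and TATA box letters in 14.3% of the 35 and 6.73% of all. Several windows belong to the same gene and so are not separate cases, and a match in letters is not a measured binding site.

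In the lists of ERK feedback genes and of the EGF receptor family with its ligands, 1 gene was called by edgeR over the 18 libraries. RGS20, a regulator of G protein signalling on chromosome 8, averaged 20.6 ± 2.36 CPM at 6 h and 12.3 ± 1.76 CPM at 0 h (SD, n = 3 each; log2 change 0.74, adjusted p = 0.035). It was the one call in the list of 19 genes named ERK feedback genes. RGS20 acts on G proteins, and the list was chosen with earlier results of these data known. No ERK phosphatase gene of the list was called over the 18 libraries. The ERK phosphatase gene DUSP4 and the feedback genes PHLDA1 and SPRY2 had adjusted p of 0.12, 0.17 and 0.34, with the 6 h libraries above the 0 h libraries in each. DESeq2 called 2 of the 19 higher, and the fit to the 9 HaCaT libraries called 4: RGS20, DUSP4 (adjusted p = 0.014), PHLDA1 (0.024) and DUSP6 (0.019). The 11 genes of the EGF receptor family and its ligands had no call in edgeR and a median log2 change of -0.01, with 3 higher and 0 lower at an unadjusted p under 0.05. DESeq2 and the fit to the 9 HaCaT libraries each called 3 of these 11 higher. In the fit to the 9 HaCaT libraries these were the ligands TGFA, EREG and NRG1. TGFA averaged 69.4 ± 3.80 CPM at 6 h and 49.8 ± 2.73 CPM at 0 h (adjusted p = 0.056 over 18 libraries and 0.00062 over 9). EREG averaged 17.1 ± 0.47 CPM at 6 h and 11.3 ± 1.38 CPM at 0 h. NRG1, also known as neuregulin, averaged 335 ± 20.2 CPM at 6 h and 274 ± 20.7 CPM at 0 h. RGS20 kept its call in none of the 6 fits that left out 1 library.

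The TGF-beta superfamily was split. INHBA, the subunit of activin A, which is known to be induced in skin wounds, had 36.9, 39.3 and 43.7 CPM at 6 h against 21.5, 19.2 and 33.3 CPM at 0 h (log2 change 0.70, SE 0.14, adjusted p = 0.034). The 0 h library C of INHBA lay nearer to the 6 h libraries than to the other two. BMP6, a bone morphogenetic protein expressed in differentiating epidermis, had 20.8, 20.6 and 19.7 CPM at 6 h against 11.7, 8.61 and 12.04 CPM at 0 h (log2 change 0.92, SE 0.18, adjusted p = 0.026). SMAD6, the inhibitory SMAD that is itself a BMP target, had 56.5, 57.4 and 47.7 CPM at 6 h against 95.3, 86.2 and 82.3 CPM at 0 h, lower in every 6 h library (log2 change -0.71, SE 0.14, adjusted p = 0.023). Of 21 TGF-beta and activin genes 2 rose, INHBA among them, and none fell, with a median log2 change of 0.11. Of 18 BMP genes 1 rose and 1 fell, with a median of -0.15, and 6 were lower and 1 higher at an unadjusted p under 0.05. Among all genes tested 3.93% were lower and 3.62% higher at that p, and 0.138% were called up and 0.0632% down. ID1, a direct BMP target, averaged 128 ± 0.87 CPM at 6 h and 175 ± 23.7 CPM at 0 h (adjusted p = 0.15 over 18 libraries and 0.0015 over the 9 of HaCaT). The activin antagonist FST averaged 240 ± 3.95 CPM at 6 h and 161 ± 1.20 CPM at 0 h (adjusted p = 0.089 and 4e-06). The inhibitory SMAD7 averaged 41.9 ± 2.88 CPM at 6 h and 56.0 ± 3.92 CPM at 0 h (0.43 and 0.0042). FGFR3, an FGF receptor of keratinocytes, averaged 145 ± 4.70 CPM at 6 h and 198 ± 14.7 CPM at 0 h (log2 change -0.45, SE 0.09, adjusted p = 0.031), and was the one call among 11 FGF receptors and ligands. INHBA, BMP6, SMAD6 and FGFR3 each kept the call only without 0 h C.

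Inhibitors of extracellular proteases were among the genes that rose. TFPI2, a Kunitz-type inhibitor of plasmin and tissue factor activity, had 27.1, 26.9 and 30.02 CPM at 6 h against 15.2, 16.8 and 12.8 CPM at 0 h (log2 change 0.90, SE 0.14, adjusted p = 0.0031). Its 6 h libraries were close together and far above those of 0 h. SERPINE2, protease nexin-1, averaged 320 ± 17.6 CPM at 6 h and 239 ± 3.76 CPM at 0 h (log2 change 0.42, SE 0.09, adjusted p = 0.041). Of 23 genes for plasminogen, coagulation and matrix proteases with their inhibitors 3 rose, these among them, and none fell. The list's median log2 change was 0.28, and 10 members were higher and 2 lower at an unadjusted p under 0.05. Across all genes tested these shares were 3.62% and 3.93%, and 0.138% were called up. SERPINB2, a plasminogen activator inhibitor, averaged 54.1 ± 3.20 CPM at 6 h and 38.1 ± 3.34 CPM at 0 h, with an adjusted p of 0.07. PLAU, encoding urokinase, and F3, encoding tissue factor, were not called by edgeR over the 18 libraries and were called higher in the fit to the 9 HaCaT libraries (adjusted p = 0.011 and 0.00091). That fit and DESeq2 each called 7 of the 23 higher. SERPINE2 lost its call without any 1 of the 6 libraries.

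Of 25 integrin and wound matrix genes 1 rose and none fell. Their median log2 change was 0.10, and 8 were higher and 1 lower at an unadjusted p under 0.05. At that p 3.62% of all genes tested were higher and 3.93% lower, and 0.138% were called up. THBS1, the matricellular protein thrombospondin-1, averaged 1957 ± 98.5 CPM at 6 h and 1432 ± 131 CPM at 0 h (adjusted p = 0.058). The laminin chain LAMA3 averaged 1296 ± 59.8 CPM at 6 h and 1040 ± 73.3 CPM at 0 h (adjusted p = 0.088). The fibronectin receptor subunit ITGA5 averaged 58.5 ± 5.50 CPM at 6 h and 46.2 ± 3.61 CPM at 0 h (adjusted p = 0.15). For THBS1, LAMA3 and ITGA5 the 6 h libraries lay above the 0 h libraries, and the fit to the 9 HaCaT libraries called all of them higher.

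Further genes that rose act in adhesion, signalling and transcription. ETS1, an ETS-family transcription factor, had 105, 119 and 106 CPM at 6 h against 75.6, 66.1 and 77.3 CPM at 0 h (log2 change 0.59, SE 0.09, adjusted p = 0.0025). BCAR3, an adaptor of the adhesion protein p130Cas, averaged 145 ± 5.41 CPM at 6 h and 108 ± 5.06 CPM at 0 h (adjusted p = 0.0078). FAM83A on chromosome 8, linked to EGF receptor signalling, averaged 199 ± 9.84 CPM at 6 h and 140 ± 10.3 CPM at 0 h (adjusted p = 0.0045). The receptor tyrosine kinase AXL, a YAP target, averaged 67.1 ± 5.55 CPM at 6 h and 49.0 ± 2.91 CPM at 0 h (adjusted p = 0.034). It was the one call among 28 actin, YAP and SRF targets (median log2 change 0.05; 3 higher and 1 lower at an unadjusted p under 0.05). In that list WWTR1 (TAZ) had 107 ± 0.85 CPM at 6 h and 82.4 ± 7.60 CPM at 0 h (adjusted p = 0.15). FHL2 had an adjusted p of 0.63, and CNN1 had 0 reads in each 6 h library and 3 in each 0 h library (adjusted p = 0.19). HMGA2, a chromatin architectural protein, averaged 108 ± 1.47 CPM at 6 h and 83.2 ± 2.41 CPM at 0 h (adjusted p = 0.023). CD59, which protects cells from complement, averaged 251 ± 8.83 CPM at 6 h and 203 ± 6.56 CPM at 0 h (adjusted p = 0.035). FAM83A lost its call without 6 h A or 0 h B, and BCAR3 without 6 h A, 0 h A or 0 h B. AXL, HMGA2 and CD59 lost it without any 1 of the 6 libraries.

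PMP22, HS6ST2 and ATP1B2 had no read in any 0 h library. PMP22 had 8, 6 and 5 reads in the 6 h libraries A, B and C, HS6ST2 6, 5 and 5, and ATP1B2 11, 6 and 2. Against a limit of 3 reads per 0 h library, their mean CPM at 6 h was 2.09-fold, 1.75-fold and 2.10-fold higher. The limit covers counting error at 0 h only, not that of the few 6 h reads or the spread between libraries. In 6 h C, ATP1B2 had 0.12 CPM, below the limit of 0.19 CPM. Their few HaCaT reads were tested only because the TIGK libraries carried them past the filter on low counts. All 3 carry reads in TIGK: HS6ST2, a heparan sulfate sulfotransferase, averaged 51.9 ± 2.73 CPM in TIGK at 6 h and 58.1 ± 3.53 CPM in TIGK at 0 h (SD, n = 3 each). For 25 genes above 20 CPM in TIGK and with at most 1 read in the HaCaT libraries of 24 h, summed reads were 18, 20 and 21 in HaCaT 6 h libraries and 19, 8 and 21 in HaCaT 0 h libraries. The part of reads from TIGK libraries in these 3 calls was not tested. PMP22 kept its call without 6 h B or 6 h C, ATP1B2 without 6 h C alone, and HS6ST2 in none of the 6 fits.

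Regulators and products of epidermal differentiation were among the genes that fell. FOXN1, a transcription factor of early keratinocyte differentiation, had 12.1, 13.3 and 10.96 CPM at 6 h against 21.0, 22.8 and 17.5 CPM at 0 h (log2 change -0.75, SE 0.15, adjusted p = 0.031). TP73, the p53-family factor, had 22.4, 27.7 and 22.6 CPM at 6 h against 35.6, 37.8 and 43.2 CPM at 0 h (log2 change -0.68, SE 0.13, adjusted p = 0.023). TGM1, the membrane-bound transglutaminase that cross-links the cornified envelope, had 54.2, 50.8 and 48.3 CPM at 6 h against 79.6, 76.8 and 67.3 CPM at 0 h (log2 change -0.54, SE 0.09, adjusted p = 0.0078). In all 3 genes each 6 h library was below each 0 h library. FOXN1 and TP73 were the calls among 22 differentiation factors, whose median log2 change was -0.15. Of the 22, 8 had 6 h libraries wholly below 0 h and 3 wholly above, against 7.94% and 7.97% of all genes. In the same list GRHL3, which drives barrier formation, averaged 7.65 ± 0.91 CPM at 6 h and 5.85 ± 0.56 CPM at 0 h (adjusted p = 0.68). The call was lost by TGM1 without 6 h C, 0 h A or 0 h B; FOXN1 kept it only without 0 h C and TP73 only without 6 h B.

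Other structural genes of the cornified layer were not called by edgeR over the 18 libraries. Of 34 tested, TGM1 alone was, the median log2 change was 0.09, and 6 were higher and 3 lower at an unadjusted p under 0.05. KRTDAP averaged 6.41 ± 1.58 CPM at 6 h and 2.96 ± 1.34 CPM at 0 h. The desmosomal cadherin DSC1 averaged 4.66 ± 0.81 CPM at 6 h and 2.12 ± 0.97 CPM at 0 h. SBSN, a suprabasal secreted protein, averaged 1.91 ± 0.94 CPM at 6 h and 0.82 ± 0.17 CPM at 0 h. Their adjusted p were 0.19, 0.32 and 0.26, although the 6 h libraries of each lay above the 0 h libraries. The fit to the 9 HaCaT libraries called KRTDAP (adjusted p = 0.028) and DSC1 (0.0497) higher and EVPL, encoding envoplakin, lower (0.039). Among 13 basal and wound keratins and alarmins edgeR called none (median log2 change 0.21; 3 higher and 1 lower at an unadjusted p under 0.05; DESeq2 called 0). S100A2 averaged 710 ± 55.3 CPM at 6 h and 550 ± 23.4 CPM at 0 h (adjusted p = 0.41). The keratin KRT17 averaged 3970 ± 294 CPM at 6 h and 4660 ± 147 CPM at 0 h (adjusted p = 0.45). The fit to the 9 HaCaT libraries called S100A2 higher and KRT17 lower. KRT6B and PI3, a wound keratin and a protease inhibitor of inflamed skin, had adjusted p of 0.66 each. Of 18 Notch genes, whose signalling promotes differentiation, none was called by edgeR or DESeq2, 0 were higher and 2 lower at an unadjusted p under 0.05, and the median log2 change was -0.06. The ligand JAG2 averaged 395 ± 10.9 CPM at 6 h and 465 ± 6.19 CPM at 0 h. The receptor NOTCH3 averaged 26.1 ± 2.15 CPM at 6 h and 33.7 ± 1.84 CPM at 0 h. Both were called lower in the fit to the 9 HaCaT libraries, and HES2 and NOTCH1 had adjusted p of 0.72 and 0.77.

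TSC22D3 (GILZ), a glucocorticoid-induced gene, had 53.9, 57.0 and 62.2 CPM at 6 h against 84.8, 88.8 and 80.9 CPM at 0 h (log2 change -0.56, SE 0.10, adjusted p = 0.015). It was the call among 18 glucocorticoid- and FOXO-linked genes, of which 6 were lower and 1 higher at an unadjusted p under 0.05 (median log2 change -0.14). The shares of all genes tested were 3.93% lower and 3.62% higher at that p, with 0.0632% called down. SESN3, a stress-inducible FOXO target, averaged 45.9 ± 8.78 CPM at 6 h and 68.4 ± 2.32 CPM at 0 h (adjusted p = 0.10). BCL6, a transcriptional repressor, averaged 18.2 ± 2.13 CPM at 6 h and 25.2 ± 2.24 CPM at 0 h (0.17). The kinase gene SGK1 averaged 24.9 ± 1.88 CPM at 6 h and 18.7 ± 2.11 CPM at 0 h (0.12). The fit to the 9 HaCaT libraries called SESN3 and BCL6 lower (adjusted p = 0.00092 and 0.033) and did not call SGK1. SREBF1, which encodes the lipogenic factor SREBP-1, had 810, 790 and 762 CPM at 6 h against 1062, 1087 and 939 CPM at 0 h (log2 change -0.39, SE 0.08, adjusted p = 0.035). WSCD2, a low transcript, had 1.97, 3.18 and 3.35 CPM at 6 h against 6.15, 5.94 and 6.36 CPM at 0 h (log2 change -1.11, SE 0.21, adjusted p = 0.035). USH1G, a scaffold protein known from hair cells of the inner ear, averaged 13.2 ± 3.39 CPM at 6 h and 21.8 ± 2.25 CPM at 0 h (adjusted p = 0.031). PLEKHA6, a pleckstrin homology protein of cell junctions, averaged 13.8 ± 2.22 CPM at 6 h and 20.6 ± 2.01 CPM at 0 h (0.031). RAPGEFL1, of the Rap exchange factor family, averaged 177 ± 10.7 CPM at 6 h and 232 ± 1.41 CPM at 0 h (0.04). TSC22D3 kept its call without 6 h C or 0 h C, SREBF1 without 0 h C, USH1G without 6 h A and PLEKHA6 without 6 h C, in no other of the 6 fits. WSCD2 and RAPGEFL1 kept it in none.

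**Figure D2:**
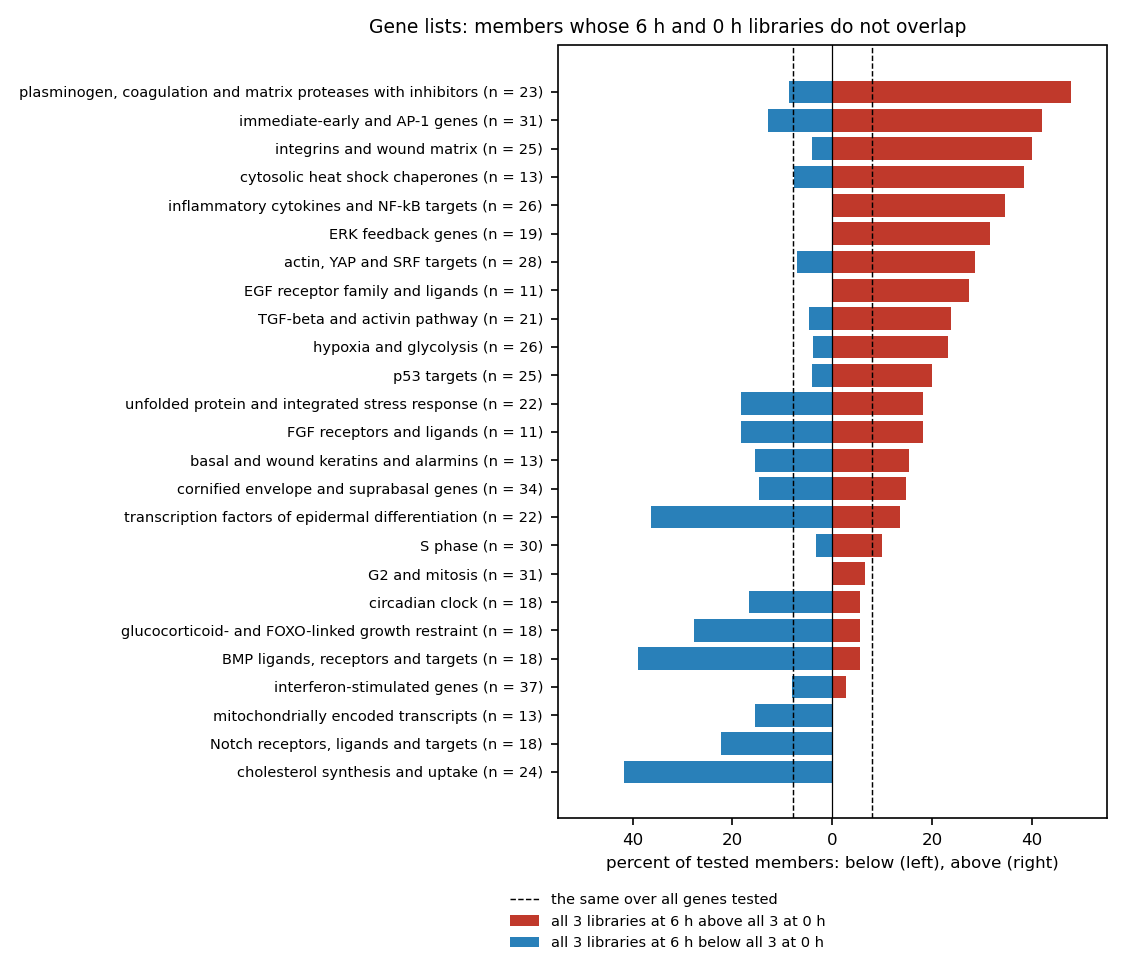
Percent of the tested members of each gene list whose 3 HaCaT libraries at 6 h lay all above (right) or all below (left) the 3 at 0 h; n is the number tested and dashed lines give the same share over all 17409 genes, 7.97% above and 7.94% below. Protease and inhibitor genes (11 of 23 above) and immediate-early genes (13 of 31 above) extend farthest to the right, cholesterol genes (10 of 24 below) and BMP genes (7 of 18 below) farthest to the left.

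The cell cycle, stress and interferon lists had no call at 6 h by edgeR over the 18 libraries. edgeR called 0 of 30 S phase genes and 0 of 31 genes of G2 and mitosis, with 0 and 1 at an unadjusted p under 0.05 and median log2 changes of 0.03 and 0.02. DESeq2 and the fit to the 9 HaCaT libraries also called 0 of both lists. RRM2, a ribonucleotide reductase subunit, averaged 51.1 ± 3.29 CPM at 6 h and 45.2 ± 2.31 CPM at 0 h (adjusted p = 0.71). UBE2C, a mitotic ubiquitin enzyme, averaged 86.6 ± 2.49 CPM at 6 h and 75.4 ± 2.15 CPM at 0 h (0.65). Of 25 p53 target genes none was called by edgeR or DESeq2, and 4 were higher and 2 lower at an unadjusted p under 0.05. The genes CDKN1A, SFN and PLK2 were called higher in the fit to the 9 HaCaT libraries. The cyclin-dependent kinase inhibitor gene CDKN1A averaged 74.6 ± 6.13 CPM at 6 h and 59.6 ± 3.14 CPM at 0 h (adjusted p = 0.18 over 18 libraries and 0.016 over 9). For 26 hypoxia and glycolysis genes, 13 heat shock chaperones, 37 interferon-stimulated genes, 18 clock genes and 13 mitochondrially encoded transcripts, edgeR, DESeq2 and the fit to the 9 HaCaT libraries called 0. At an unadjusted p under 0.05, 0, 1, 2, 0 and 0 of these were higher and 0, 0, 0, 1 and 0 lower, and their median log2 changes were 0.05, 0.06, 0.01, 0.04 and -0.02. The 6 h libraries lay wholly above those of 0 h in 6, 5, 1, 1 and 0 members, against 7.97% of all genes. They lay wholly below in 1, 1, 3, 3 and 2 members, against 7.94% of all genes. VEGFA, HSPA8, RSAD2, PER1 and MT-ND3 had the lowest unadjusted p of the 5 lists, at 0.063, 0.037, 0.039, 0.039 and 0.41.

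Of 22 genes of the unfolded protein and integrated stress response, edgeR and DESeq2 called none, with 2 higher and 3 lower at an unadjusted p under 0.05 and a median log2 change of -0.03. PPP1R15A (GADD34), a phosphatase subunit induced by stress, averaged 27.5 ± 3.86 CPM at 6 h and 19.8 ± 2.43 CPM at 0 h (adjusted p = 0.18), and was called higher in the fit to the 9 HaCaT libraries, which called CEBPB lower. Among 24 genes of cholesterol synthesis and uptake edgeR called none, DESeq2 called 1 lower, and 0 were higher and 2 lower at an unadjusted p under 0.05. Of the 24, 10 had 6 h libraries wholly below the 0 h libraries and 0 wholly above (median log2 change -0.07). Over all genes these shares were 7.94% and 7.97%. INSIG1, the sterol-sensing brake on SREBP, averaged 277 ± 4.68 CPM at 6 h and 317 ± 11.4 CPM at 0 h (adjusted p = 0.54).

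Genes called by edgeR in the fit to the 9 HaCaT libraries and not over all 18 widened both groups. Among protein-coding ones with at least 10 CPM and no overlap between 6 h and 0 h, the 8 largest increases were those of FOSB, FOS, DOCK4, LY6K, ANTXR2, KCNMA1, EREG and ADAMTS1. DOCK4, a Rac exchange factor, had 13.1 ± 1.62 CPM at 6 h and 8.18 ± 0.37 CPM at 0 h (log2 change 0.68, adjusted p = 0.024 in that fit and 0.12 over 18 libraries). ANTXR2, a collagen-binding membrane receptor, averaged 61.9 ± 2.58 CPM at 6 h and 39.6 ± 6.74 CPM at 0 h (0.64, adjusted p = 0.0005 and 0.12). KCNMA1, the BK potassium channel, averaged 63.5 ± 2.02 CPM at 6 h and 41.6 ± 6.37 CPM at 0 h (0.61, adjusted p = 0.003 and 0.16). The metalloprotease gene ADAMTS1 and the GPI-anchored LY6K on chromosome 8 had log2 changes of 0.58 and 0.65. The 8 largest decreases were led by MTUS2, a microtubule-associated protein with 13.5 ± 1.40 CPM at 6 h and 23.2 ± 1.61 CPM at 0 h (log2 change -0.78, adjusted p = 0.00025 and 0.12). SLC22A23, SAMD11, SESN3, KLHL24, NEURL1B, KIF26A and COX6B2 had log2 changes between -0.70 and -0.49 in that fit. The number of calls in the fit to 9 libraries was 94 without 6 h A, 211 without 6 h B, 83 without 6 h C, 110 without 0 h A, 157 without 0 h B and 169 without 0 h C.

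The genes called at 6 h took different courses to 24 h, and because the 24 h comparison uses the same 0 h libraries the values are given side by side. Over all genes, 31.4% were called between 24 h and 0 h and 35.7% between 24 h and 6 h. TNFAIP3 averaged 37.7, 61.6 and 274 CPM at 0 h, 6 h and 24 h. CXCL8 averaged 2.09, 5.15 and 61.9 CPM at these times, and NR4A1 6.18, 13.8 and 37.5 CPM. ATF3, KLF6 and INHBA also stood higher at 24 h than at 6 h, at 18.3, 168 and 89.0 CPM at 24 h. IL1RL1 had the opposite course, with 17.9, 38.6 and 0.77 CPM at 0 h, 6 h and 24 h, as did BMP6 with 10.8, 20.4 and 0.87 CPM. TFPI2 averaged 14.96, 28.0 and 4.17 CPM at the 3 times. Likewise SERPINE2 averaged 239, 320 and 80.5 CPM and FOSL1 185, 291 and 113 CPM. ETS1 and AXL had 24 h levels with adjusted p of 0.25 and 0.67 against 0 h. FAM83A, HMGA2, CD59 and RGS20 were lower at 24 h than at 0 h (log2 changes -1.05, -1.29, -1.05 and -1.02), and BCAR3 was higher (0.26).

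Among the genes that fell at 6 h, FOXN1 averaged 20.4, 12.1 and 46.1 CPM at 0 h, 6 h and 24 h, TGM1 74.6, 51.1 and 160 CPM, and TSC22D3 84.9, 57.7 and 359 CPM. SMAD6 averaged 87.9, 53.9 and 203 CPM and WSCD2 6.15, 2.83 and 32.2 CPM at the same times. For TP73, USH1G, PLEKHA6, FGFR3, SREBF1 and RAPGEFL1 the log2 change of 24 h over 0 h was 0.61, 0.86, 1.10, 0.45, 0.36 and 0.30, each called.

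**Figure D3:**
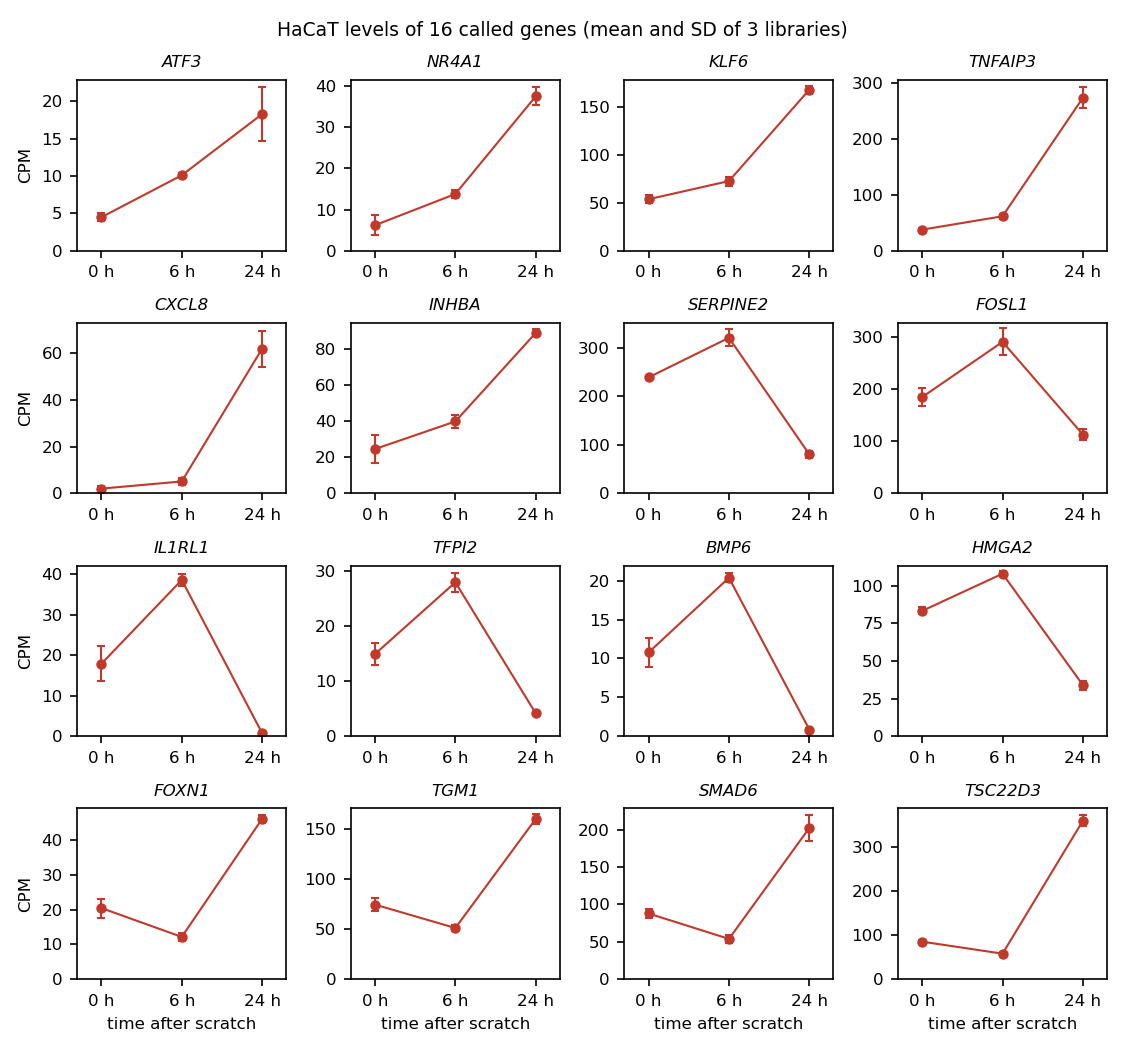
Mean CPM of 16 called genes in HaCaT at 0 h (unscratched), 6 h and 24 h after the scratch, with bars of 1 SD over 3 libraries; each panel has its own axis starting at 0. In the first 6 panels the level is highest at 24 h, in the next 6 it is highest at 6 h, and in the 4 bottom panels it is lowest at 6 h and highest at 24 h.

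The genes were then read in TIGK, whose libraries entered the HaCaT comparison through the shared estimate of spread and the filter on low counts. In TIGK 630 genes were called at 6 h (3.62%; 2.5% up and 1.12% down). Of the 35 HaCaT calls, 16 were called in the same direction in TIGK, which is 45.7% of the HaCaT calls and 2.54% of the TIGK calls. SERPINE2 alone was called in the opposite direction. Of the 24 genes that rose in HaCaT, 15 also rose in TIGK, and 20 had a log2 change above 0 there (median 0.54). Of the 11 that fell in HaCaT, RAPGEFL1 alone also fell in TIGK, 0 rose, and 6 had a log2 change above 0. Over all genes tested 46.4% were above 0 in TIGK, with a median of -0.02. TNFAIP3 rose by a log2 change of 0.71 in HaCaT and 0.81 in TIGK, and FOSL1 by 0.65 in HaCaT and 0.88 in TIGK. The difference between lines was not called for TNFAIP3 (-0.10, SE 0.14, adjusted p = 0.86) or FOSL1 (-0.23, SE 0.16, adjusted p = 0.67).

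The difference between the HaCaT and TIGK responses, tested as an interaction, was called for 131 genes (0.752%, with 0.218% up and 0.534% down). It was called for 12 of the 35. The 35 were chosen by their change in HaCaT, which is one side of this difference and rests on the same libraries. A share above that of all genes would follow from this choice, so no conclusion is drawn from 12 of 35. The 12 include PMP22 and HS6ST2, tested in HaCaT only through the TIGK reads and with 0 reads in HaCaT at 0 h. SERPINE2 averaged 320 ± 17.6 CPM at 6 h and 239 ± 3.76 CPM at 0 h in HaCaT. It fell in TIGK, with 85.4 ± 5.51 CPM at 6 h and 130 ± 20.05 CPM at 0 h (difference 1.03, adjusted p = 6.8e-05). BMP6 and TFPI2 had log2 changes of 0.92 and 0.90 in HaCaT, against -0.32 and 0.08 in TIGK (adjusted p of the difference 0.016 and 0.031).

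Several of the genes that fell in HaCaT had another course in TIGK. FOXN1 had a log2 change of -0.75 in HaCaT and 0.46 in TIGK (adjusted p of the difference 0.004), and TGM1 one of -0.54 in HaCaT and 0.25 in TIGK (0.0021). TSC22D3 changed by -0.56 in HaCaT, against 0.19 in TIGK (0.0089), and PLEKHA6 had -0.58 in HaCaT and 0.19 in TIGK (0.014). For FGFR3 the log2 change was -0.45 in HaCaT and 0.08 in TIGK (0.046). None of these 5 was called at 6 h within TIGK. The line difference was kept in all 12 fits that left out 1 library of 6 h or 0 h for SERPINE2, TGM1, FOXN1 and TSC22D3. It was kept in 11 for BMP6 (adjusted p = 0.059 without TIGK 0 h B), in 9 for PLEKHA6, in 4 for TFPI2 and in 3 for FGFR3. WSCD2 had no read in TIGK at 6 h or 0 h.

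**Figure D4:**
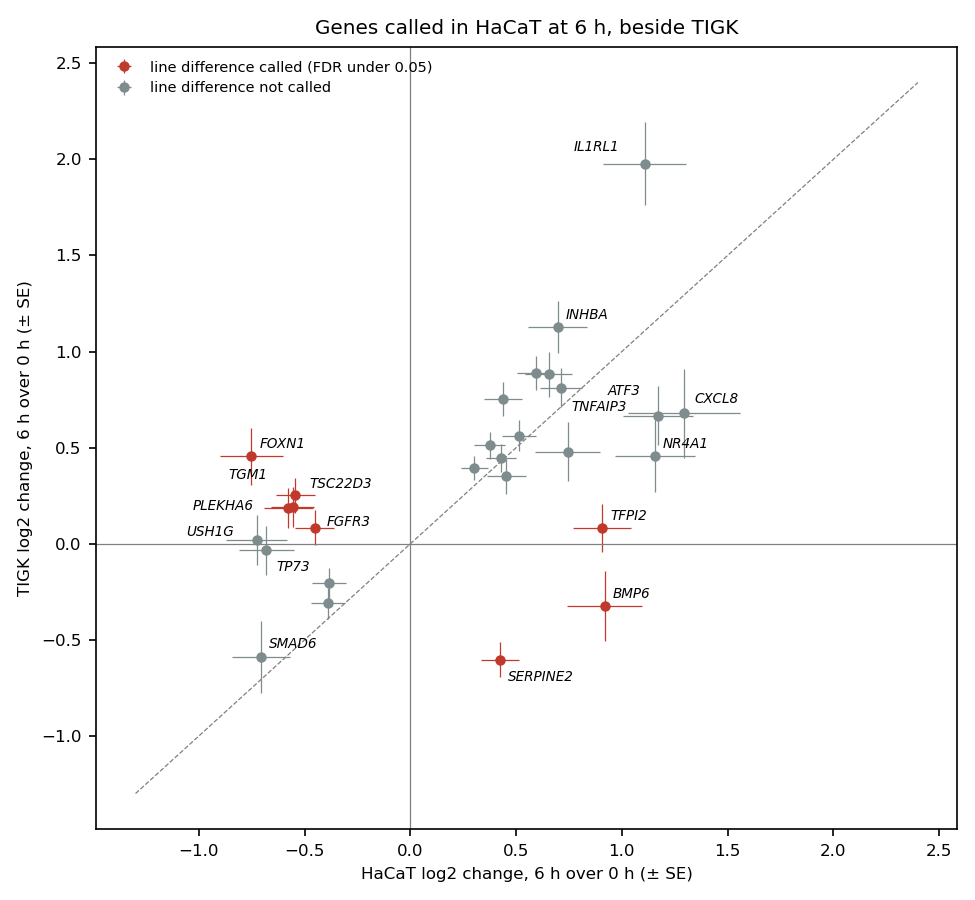
Log2 change of 6 h over 0 h in HaCaT (x axis) and in TIGK (y axis), each with its SE, for the called genes described here with reads at 0 h in HaCaT and in TIGK; red points have a called difference between lines and the dashed line marks equal change. SERPINE2, BMP6 and TFPI2 lie below the dashed line, and FOXN1, TGM1, TSC22D3, PLEKHA6 and FGFR3 lie at the upper left, negative in HaCaT and positive in TIGK.

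The authors' deposited table for this comparison lists 154 genes, 87 higher and 67 lower at 6 h. All 154 had the same sign in the present fit, 30 were among the 35 calls over 18 libraries, and 148 were among the 210 calls over the 9 HaCaT libraries. The authors' table is of the same comparison in the same series, so this overlap is not separate evidence. Its largest adjusted p was 0.0095, whereas the calls here took a false discovery rate under 0.05. By the authors' deposited table the largest increases not described so far were those of SH2D5 (log2 0.53), IL7R (0.51) and RPL23A (0.50), after FST (0.57) and alongside SERPINB2 (0.50). RPL23A has many processed copies in the genome, so its reads are uncertain. Decreases in the authors' deposited table included those of IFITM10 (-1.02), CASZ1 (-0.49), JUND (-0.46) and ID1 (-0.45). In the fit to all 18 libraries these genes had adjusted p between 0.07 (SERPINB2) and 0.90 (RPL23A).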

How the data were processed

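RNA was sequenced in HaCaT and TIGK cultures at 0 h, 6 h and 24 h (3 libraries per group). The build hg38 and the tools featureCounts 1.5.0-p3, HISAT2 2.0.5 and StringTie 1.3.3b are named, per the submitters' processing notes; the role of each, the annotation release and strand use are not given in the sources used here, so reads of overlapping or antisense genes cannot be told apart. The authors deposited read counts per gene, FPKM (scaled by gene length and by a size factor per library) and a table of their own comparison with log2 fold changes, p-values and a score (the standard error), per the file headers. Columns carry letters that the labels do not tie to replicate numbers, and nothing says that replicates were separate cultures, so p-values may measure technical spread.

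The tests used edgeR 4.0.16 (R 4.3.3) on the counts: filterByExpr, TMM scaling, a quasi-likelihood fit of 6 group means to 18 libraries (12 residual degrees of freedom), a prior count of 0.125, and Benjamini-Hochberg adjustment over all genes tested. Levels are TMM-scaled CPM, with mean ± SD (n = 3); the SE is the absolute log2 change over the square root of F. All p-values are two-sided. The fit to the 9 HaCaT libraries has 6 residual degrees of freedom and no TIGK library in its spread or filter. Alternatives were DESeq2 1.42.0, limma 3.58.1 on log2(FPKM + 1), other scaling and filters, a block by letter, and fits without single libraries; the calculation was tested on simulated data.

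The comparison and the 25 gene lists were chosen with earlier results of these data known. Named genes were all called protein-coding genes with a unique symbol (1745 rows share one), up to 4 members of each list with the lowest p, the 8 largest changes each way called only in the fit to 9 HaCaT libraries with at least 10 CPM and no overlap, and the 5 largest each way in the authors' table not among these. List members called only in the fit to 9 libraries were named after their values were seen. A log2 change of a gene with 0 reads in a group is not printed. Its fold is the mean of the other group over 3 reads per library, which leaves out counting error in that other group. A few genes that the rule names are counted but not reported here.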

Additional observations from a re-analysis of the deposited data

Results flagged for a closer look

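These values were singled out because the 6 h response of HaCaT differed from that of TIGK by edgeR's interaction test (adjusted p under 0.05) for a gene described above. Among genes that rose in HaCaT, the HaCaT minus TIGK difference in log2 change was 1.03 for SERPINE2 (adjusted p = 6.8e-05), 1.24 for BMP6 (0.016) and 0.82 for TFPI2 (0.031). For PMP22 and HS6ST2 the fitted differences were 6.06 and 5.64 (0.0071 and 0.0062); with 0 reads in the HaCaT 0 h libraries these depend on the prior count and are no measure of size. Both genes passed the filter on low counts only through TIGK, their HaCaT side rests on 5 to 8 reads per 6 h library, and no weight is placed on these p-values. Among genes that fell in HaCaT, the difference was -1.21 for FOXN1 (0.004), -0.80 for TGM1 (0.0021), -0.76 for PLEKHA6 (0.014), -0.75 for TSC22D3 (0.0089) and -0.54 for FGFR3 (0.046).

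Of genes not called in HaCaT over 18 libraries, LAMA3 and THBS1 had differences of -0.79 (adjusted p = 0.00018) and -0.93 (9e-04): LAMA3 had a log2 change of 0.32 in HaCaT and 1.11 in TIGK, and THBS1 0.45 in HaCaT and 1.38 in TIGK. SMAD7 had a log2 change of -0.42 in HaCaT and 0.54 in TIGK (difference -0.97, adjusted p = 0.045), and JAG2 -0.23 in HaCaT and 0.23 in TIGK (difference -0.47, adjusted p = 0.033). PER1, a clock gene, had -0.19 in HaCaT and 0.37 in TIGK (difference -0.56, adjusted p = 0.023). KIF26A had -0.51 in HaCaT and 0.28 in TIGK (difference -0.79, adjusted p = 0.020). The sterol-regulated gene INSIG1 had a log2 change of -0.19 in HaCaT and -0.70 in TIGK (difference 0.51, adjusted p = 0.031). THBS1 and LAMA3 kept this call in all 12 fits that left out 1 library of 6 h or 0 h, KIF26A in 6, PER1 in 4, INSIG1 in 3, and SMAD7 and JAG2 in 2.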

How the results depend on the processing

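No gene named for the HaCaT comparison changed sign under an alternative while called in the main fit or in that alternative. Changes of sign in genes called in neither were not counted. No named gene called for the line difference changed sign under any alternative. Median-of-ratios scaling called 35 genes at 6 h, all of them those of the main fit, and log2(FPKM + 1) with limma called 30, of which 18 were shared. The count of calls for HaCaT was 105 with DESeq2, 130 with no filter on low counts, 77 when the C libraries of TIGK 6 h and TIGK 0 h were dropped, 210 with the 9 HaCaT libraries and 200 with the 6 HaCaT libraries of 0 h and 6 h. It ranged between 4 and 30 when 1 HaCaT library of 6 h or 0 h was left out, and, within the 9 HaCaT libraries and chosen after seeing the data, it was 94, 211 and 83 without 6 h A, B and C and 110, 157 and 169 without 0 h A, B and C; there 30 to 32 of the 32 tested calls were kept. For the line difference the 131 calls became 307 with DESeq2 and 293 with no filter, and 68 to 260 when 1 library was left out, lowest without TIGK 6 h B and highest without TIGK 6 h C. The causes of these shifts were not tested; leaving out a library also leaves fewer samples.

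Deviations of HaCaT 6 h and 0 h libraries of the same letter correlated at -0.014, -0.077 and -0.035 across genes. The letters thus showed no pairing in HaCaT, and the same was not computed for TIGK. Mitochondrially encoded reads made up 5.08 and 4.98% in TIGK 0 h C and 6 h C, against 5.84 to 6.28% in A and B. With the letter as a block the count was 70 in HaCaT (34 of the 35 kept), 162 in the 9 HaCaT libraries and 212 for the line difference. Values for named genes in HaCaT stayed on the same side of the threshold in 2172 cases, passed it newly in 413 and lost it in 170; for the line difference 277 stayed and 83 were lost. Counts for the 25 lists moved in 206 cases and stayed close in 319. Depth limits genes such as PMP22, HS6ST2 and ATP1B2, with 0 reads at 0 h.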
